A study of Mus musculus with 8 samples.

Results

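The 10 genes described here encode the channels, pumps and partner proteins that release calcium from the endoplasmic reticulum and take it back up. They were picked by symbol, with no measured value in the rule: the ryanodine receptors Ryr1, Ryr2 and Ryr3, the inositol trisphosphate (IP3) receptors Itpr1, Itpr2 and Itpr3, the SERCA pumps Atp2a2 and Atp2a3, the pump inhibitor Pln and the luminal calcium buffer Casq2. They are 10 of the 27179 genes in the deposited table, and all 10 lay above 1 CPM (counts per 1000000 reads of the scaled library size) in at least 2 of the 8 libraries and so entered the tests.

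The series holds total RNA of 4 mouse organs, brain, heart, kidney and liver, with 1 library from frozen and 1 from formalin-fixed, paraffin-embedded (FFPE) tissue of each. Frozen organs were flash frozen after harvest, and FFPE organs were fixed in 10% formalin, embedded in paraffin and freed of paraffin before RNA was extracted. RNA of both kinds was isolated with Trizol and sheared for 6 min in a PIXUL sonicator. The series was made to profile frozen and archived tissue with the same toolbox, so the comparisons it allows are between organs and between preparations. No group carries a named allele or agent, and strain, age, sex, the number of animals and any pooling are not given in the labels. Each organ and preparation is 1 library, so p-values measure only the spread between these libraries, which may be technical.

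Ryanodine receptors and IP3 receptors are large homotetrameric channels in the membrane of the endoplasmic or sarcoplasmic reticulum. The first open in response to calcium entry or to a voltage sensor, the second to IP3 made by phospholipase C. SERCA pumps return calcium to the store at the cost of ATP, phospholamban restrains the pump until it is phosphorylated, and calsequestrin holds calcium inside the store close to the ryanodine receptor. In heart muscle this cycle drives contraction at each beat, while in neurons and epithelia the IP3 receptors carry signals from surface receptors.

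Libraries held 10180972 to 20526813 reads in genes. The scaling factors contained in the deposited values ran from 0.4998 in frozen heart to 1.76 in FFPE brain, so that 3 reads stood for 0.292 CPM in frozen heart and 0.119 CPM in frozen brain. Markers of the labelled tissue were present where they belong. Summed CPM of 7 cardiomyocyte markers was 58681 in frozen and 66932 in FFPE heart and at most 51.2 in any other library, and for 4 hepatocyte markers it was 47350 and 40518 in liver against at most 10.5. Of the 7 cardiomyocyte markers only Ttn was higher in FFPE than in frozen heart, at 44118 against 31595 CPM. Kidney tubule markers (6752 and 4930 in kidney, at most 10.2 elsewhere) and neuron markers (821 and 1172 in brain, at most 9.33 elsewhere) were likewise placed. Some paired libraries differed in their makeup. FFPE heart held 854 CPM of 4 atrial markers against 18.03 in frozen heart, where Sln and Myl7 had 0 reads, and FFPE brain held 170 CPM of 4 cerebellar granule cell markers against 15.6 in frozen brain, where Gabra6 had 0 reads. These values are repeated beside the results they move with. In bulk tissue, fewer cells of a type and less RNA per cell cannot be told apart.

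Organ differences are log2 differences between the mean of an organ's 2 libraries and the mean of the other 3 organs, given ± the standard error (SE), from a limma fit with terms for organ and preparation. The threshold for a call was 0.05 on the p-value after Benjamini-Hochberg adjustment over the 15819 genes tested. In heart 6 of the 10 genes were called higher and 1 lower, beside 21.5% of all tested genes called higher and 28.7% called lower. In brain 4 were higher and 3 lower (34.7% and 31.6% of all genes), in kidney 3 higher and 5 lower (20.3% and 19.9%), and in liver 1 higher and 9 lower (27.3% and 35.2%). The mean of the other organs includes the organ where a gene is highest, so a lower call does not place an organ last. The 5 genes lower in kidney were Atp2a2, Casq2, Pln, Ryr2 and Ryr3. All but Atp2a2 were called higher in kidney than in liver pairwise, Casq2 and Ryr3 not in every alternative. The median difference of the 10 genes was 1.12 in heart, 0.15 in brain, −1.70 in kidney and −4.34 in liver, where all tested genes had medians of −0.19, 0.05, −0.04 and −0.13. The liver median became −2.94 when Ryr1, without a read there, was set at a floor of 3 reads per library.

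**Figure D1:**
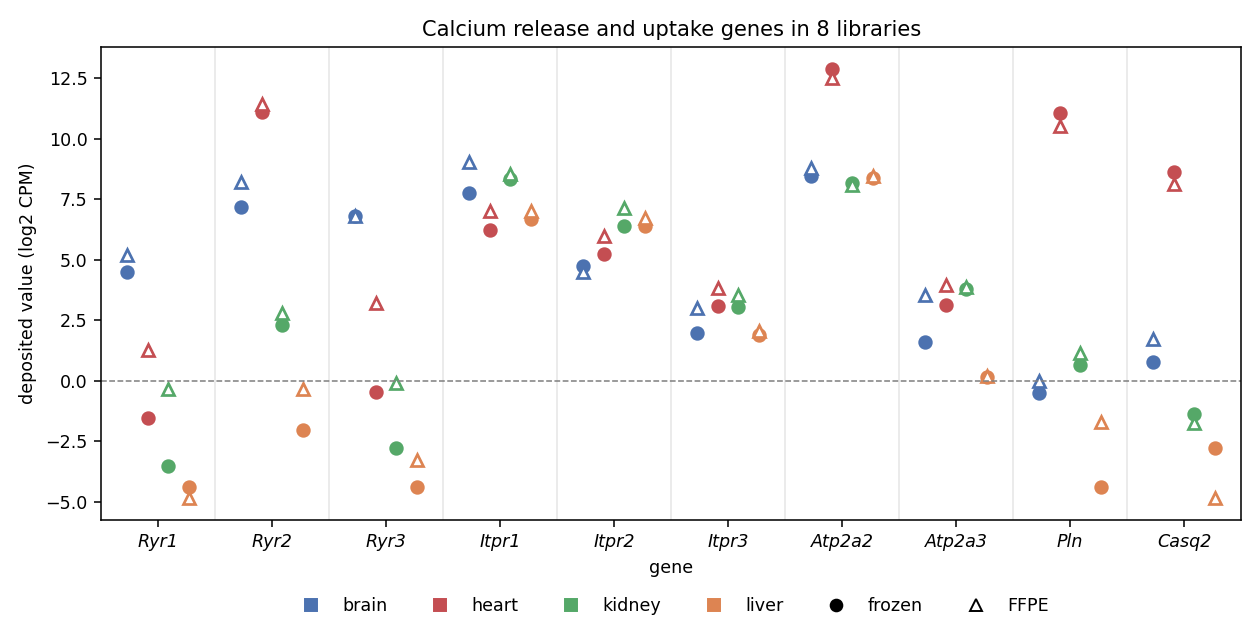
Deposited log2 CPM of the 10 genes (y axis) in the 8 libraries, 1 point per library, coloured by organ, with filled circles for frozen and open triangles for FFPE tissue; the dashed line marks 1 CPM. Ryr2, Atp2a2, Pln and Casq2 stand highest in both heart libraries, Ryr1 and Ryr3 in both brain libraries, and the 3 IP3 receptors spread over fewer log2 units.

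Promoter sequence is shown for Pln, Casq2 and Ryr2, the 3 genes with the greatest heart differences among those with an entry in the RefSeq table for GRCm38.p6. Itpr3 and Atp2a3, also called higher in heart but by 0.87 and 1.36 log2 units, have entries that are not printed. Ryr1 and Itpr2 had entries too, and Ryr3, Itpr1 and Atp2a2 had none. The runs give the 250 bases before the RefSeq start, 5′ to 3′ on the gene's strand, in lower case, with matches to the searched motifs in capitals. They cover chr13:12106946-12107195 on the minus strand for Ryr2, chr10:53337436-53337685 on the plus strand for Pln and chr3:102086165-102086414 on the plus strand for Casq2.
Ryr2: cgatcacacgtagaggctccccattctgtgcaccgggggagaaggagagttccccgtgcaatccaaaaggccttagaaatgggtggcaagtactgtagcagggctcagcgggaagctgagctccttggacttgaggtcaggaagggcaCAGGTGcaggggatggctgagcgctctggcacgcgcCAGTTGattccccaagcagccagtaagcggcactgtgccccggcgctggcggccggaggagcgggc
Pln: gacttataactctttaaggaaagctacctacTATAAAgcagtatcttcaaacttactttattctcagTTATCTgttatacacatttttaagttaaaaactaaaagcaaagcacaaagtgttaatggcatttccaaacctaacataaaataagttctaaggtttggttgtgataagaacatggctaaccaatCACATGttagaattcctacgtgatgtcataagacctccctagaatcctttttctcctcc
Casq2: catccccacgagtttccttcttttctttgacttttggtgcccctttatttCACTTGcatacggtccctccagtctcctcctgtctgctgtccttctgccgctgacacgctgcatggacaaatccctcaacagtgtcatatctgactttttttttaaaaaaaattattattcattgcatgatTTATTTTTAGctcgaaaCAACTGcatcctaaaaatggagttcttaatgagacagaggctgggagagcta
Motifs searched on both strands were the core promoter element TATAAA, the basic helix-loop-helix element CANNTG, the Sp1 element GGGCGG, the zinc finger factor element AGATAA, the MEF2 motif and the CArG box of serum response factor. No match overlapped another in the 3 runs shown. The Casq2 promoter held the MEF2 motif at −69 to −60 from the start, on a window length at which 2.92% of 32851 promoters in the table held one, and CANNTG at −200 to −195 and −52 to −47. The Pln promoter held TATAAA at −219 to −214 (12.4% of promoters), AGATAA on the other strand at −183 to −178 (9.99%) and CANNTG at −59 to −54. Ryr2 held CANNTG at −102 to −97 and −66 to −61, a motif present in 66.2% of promoters. None of the 3 held GGGCGG (32.7%) or the CArG box (1.47%). Base composition differed, with a GC content of 32.8% for Pln, 41.6% for Casq2 and 63.2% for Ryr2, beside a median of 52.4% over the table. The GGGCGG motif was found in the promoters of Ryr1, Itpr2, Itpr3 and Atp2a3, which held 2, 4, 1 and 5 matches, so the genes called higher in heart included promoters with and without it.

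Ryr2, the ryanodine receptor of heart muscle (chr13:11553102-12106945, minus strand, GRCm38), had the level 2170 CPM in frozen and 2774 CPM in FFPE heart, 144 and 295 in brain, 4.92 and 6.93 in kidney and 0.192 and 0.758 in liver. Both heart libraries stood above all others and both liver libraries below all others, and no neighbouring organs overlapped. The 4 organs therefore fell in the order heart, brain, kidney, liver, with each step called: 3.57 ± 0.30, 5.14 ± 0.30 and 3.75 ± 0.30 log2 units (limma adjusted p = 2.66e-05, 4.87e-06 and 2.66e-05). Against the mean of the other organs Ryr2 was higher in heart by 8.25 ± 0.25 (limma adjusted p = 4.82e-07) and in brain by 3.48 ± 0.25 (6.28e-06). It was lower in kidney by −3.37 ± 0.25 and in liver by −8.36 ± 0.25. Liver held 2 and 11 reads of Ryr2, against 22262 and 36582 in heart.

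Ryr3, a ryanodine receptor best known from brain and developing muscle (chr2:112631355-113217096, minus strand), was a brain transcript in these libraries. It measured 112 CPM in frozen and 113 CPM in FFPE brain, 0.682 and 9.18 in heart, 0.117 and 0.906 in kidney, and 0 and 0.0689 in liver, where only 1 read was found. Brain stood above all other libraries, while heart and kidney overlapped. Ryr3 was higher in brain by 8.11 ± 0.66 (limma adjusted p = 1.28e-05) and lower in liver by −6.08 ± 0.66 and in kidney by −2.89 ± 0.66. The kidney call rested on 2 and 20 reads and was lost without frozen kidney (−2.35, limma adjusted p = 0.130). The steps below brain were called, heart over kidney by 2.82 ± 0.81 and kidney over liver by 2.39 ± 0.81 (limma adjusted p = 0.0231 and 0.0447), and both were lost with log2(CPM + 5), at 0.71 and 0.13 (limma adjusted p = 0.113 and 0.825).

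Ryr1, the ryanodine receptor of skeletal muscle (chr7:29003344-29125179, minus strand), had 564 and 659 reads in frozen and FFPE brain, 3 and 31 in heart, 1 and 17 in kidney and 0 in both liver libraries. In CPM these were 22.4 and 36.8, 0.292 and 2.35, and 0.0585 and 0.770. Brain was above every other library, and heart and kidney overlapped. The gene was higher in brain by 7.07 ± 0.75 (limma adjusted p = 5.29e-05) and lower in liver by −5.54 ± 0.75 (0.000276). With liver at the floor of 3 reads in each library, brain was at least 77.7-fold higher in frozen and at least 178-fold higher in FFPE tissue. Heart and kidney did not differ beyond their spread (1.77 ± 0.92, limma adjusted p = 0.161). Kidney over liver was 2.70 ± 0.92 (limma adjusted p = 0.0449), a call that ended without the filter on low values (limma adjusted p = 0.0681) and in 10 other settings. The gene shares 3.96% of its exon bases with the antisense gene Gm26604, and the sources used here do not say whether counting used strand.

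Itpr1, the main IP3 receptor of neurons and the one with the highest level in cerebellar Purkinje cells (chr6:108213096-108551109, plus strand), was read most in kidney and brain. It measured 322 CPM in frozen and 368 CPM in FFPE kidney, 216 and 525 in brain, 104 and 130 in liver and 74.1 and 127 in heart. The brain libraries enclosed the kidney libraries, and kidney and brain did not differ beyond their spread (0.03 ± 0.25, limma adjusted p = 0.923). Liver and heart did not either (0.26 ± 0.25, limma adjusted p = 0.422), while brain exceeded liver by 1.53 ± 0.25 (limma adjusted p = 0.000664). Itpr1 was called higher in kidney by 1.14 ± 0.21 and in brain by 1.10 ± 0.21, and lower in heart by −1.29 ± 0.21 and in liver by −0.95 ± 0.21 (limma adjusted p = 0.00264, 0.00152, 0.00104 and 0.00392). The kidney call was lost without frozen kidney (0.84, limma adjusted p = 0.0754) and the liver call without FFPE liver (−0.73, 0.0748). After trends with exon length and GC content were removed from each library, the brain difference was −0.06 and the liver difference 0.14, both not called, so these 2 directions depended on that step.

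Itpr2, the IP3 receptor that dominates in hepatocytes and many secretory cells (chr6:146108299-146502223, minus strand), had its highest values in kidney and liver. Kidney gave 83.5 CPM in frozen and 142 CPM in FFPE tissue, liver 84.4 and 105.4, heart 37.3 and 62.4 and brain 26.6 and 22.3. Both brain libraries lay below all others, and kidney and liver overlapped and did not differ beyond their spread (0.21 ± 0.24, limma adjusted p = 0.543). Itpr2 was higher in kidney by 1.18 ± 0.20 and in liver by 0.90 ± 0.20, and lower in brain by −1.70 ± 0.20 (limma adjusted p = 0.00187, 0.00417 and 9.36e-05). In liver it was the 1 gene of the 10 called higher, and that call was lost under quantile normalization (0.48, limma adjusted p = 0.0893) and without the authors' scaling factors (0.57, limma adjusted p = 0.0749). Liver exceeded heart by 0.97 ± 0.24 and heart exceeded brain by 0.99 ± 0.24 (limma adjusted p = 0.00957 and 0.00792). The first call was lost under quantile normalization (0.46, 0.190), without a mean-variance trend (0.0579) and without frozen heart or frozen liver (0.0816 and 0.0569), and the second without a trend (0.0505) and without FFPE brain (0.56, 0.0765) or FFPE heart (0.0680). Without the scaling factors heart over brain had the opposite sign (−0.35, limma adjusted p = 0.335).

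Itpr3, an IP3 receptor of epithelia and taste cells (chr17:27057304-27122223, plus strand), was low throughout. It had 8.38 CPM in frozen and 14.0 CPM in FFPE heart, 8.19 and 11.5 in kidney, 3.85 and 7.87 in brain and 3.65 and 4.13 in liver, on 38 to 253 reads per library. Heart overlapped kidney (0.16 ± 0.29, limma adjusted p = 0.683) and brain overlapped liver (0.49 ± 0.29, limma adjusted p = 0.159), so the organs formed 2 pairs of neighbours that did not differ beyond their spread. Kidney exceeded brain by 0.81 ± 0.29 (limma adjusted p = 0.0385), a call lost in 5 settings, among them without frozen brain (0.53, 0.241), without frozen or FFPE kidney (0.202 and 0.121) and without scaling factors (0.30, 0.516). Itpr3 was called higher in heart by 0.87 ± 0.23 (limma adjusted p = 0.0144) and lower in liver by −1.09 ± 0.23 (limma adjusted p = 0.00364). The heart call was lost without either heart library (limma adjusted p = 0.0592 and 0.102) and without the scaling factors (0.03, limma adjusted p = 0.939), and the liver call without FFPE liver (−0.80, 0.0814). The liver value was 0.04 once length and GC trends were removed.

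Atp2a2, the SERCA2 pump of heart muscle and of most other cells (chr5:122453513-122502225, minus strand), was present in every library and highest in heart. It had 7562 CPM in frozen and 5884 CPM in FFPE heart, 351 and 440 in brain, 329 and 353 in liver and 286 and 268 in kidney. The heart libraries stood far above the rest, which lay within 268 to 440 CPM. Atp2a2 was higher in heart by 4.32 ± 0.18 (limma adjusted p = 1.15e-06) and was called lower in each of the other organs, by −1.12 ± 0.18 in brain, −1.40 ± 0.18 in liver and −1.80 ± 0.18 in kidney. Those averages of other organs include heart. Compared pairwise, brain and liver (0.21 ± 0.22), liver and kidney (0.30 ± 0.22) and brain and kidney (0.51 ± 0.22) were not called (limma adjusted p = 0.435, 0.327 and 0.0833). The brain call was lost under quantile normalization (−0.04) and without scaling factors (−0.19).

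Atp2a3, the SERCA3 pump of blood cells, endothelium and some epithelia (chr11:72961169-72993044, plus strand), had 11 to 318 reads per library. Kidney held 13.8 CPM in frozen and 14.4 CPM in FFPE tissue, heart 8.67 and 15.5, brain 2.97 and 11.5 and liver 1.06 and 1.10. Kidney, heart and brain overlapped, with kidney over heart at 0.27 ± 0.46 and heart over brain at 0.99 ± 0.46 (limma adjusted p = 0.670 and 0.0976), and both liver libraries lay below all others. The gene was called lower in liver by −3.14 ± 0.38 and higher in kidney by 1.73 ± 0.38 and in heart by 1.36 ± 0.38 (limma adjusted p = 0.000133, 0.00668 and 0.0162). The heart call was lost without scaling factors (0.52, limma adjusted p = 0.226) and without either heart library, and the kidney call without frozen kidney (1.29, limma adjusted p = 0.151). Of the cells Atp2a3 is known from, 4 endothelial markers summed to 543 and 476 CPM in frozen and FFPE heart, 181 and 147 in kidney, 141 and 110 in liver and 27.9 and 29.6 in brain, and 4 platelet markers to 21.9 and 38.9 in heart and at most 5.39 elsewhere. Summed CPM of 5 leukocyte markers lay between 12.1 and 16.4 in the 8 libraries, but different markers made up the sum. In frozen and FFPE brain Coro1a had 12.3 and 10.2 CPM, with Ptprc at most 2.22. In liver Ptprc had 11.7 and 13.7 CPM, with Coro1a at most 2.11. The even sum therefore does not show equal leukocyte RNA in the organs. The part of these cell types in the Atp2a3 levels was not tested.

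Pln encodes phospholamban, the small membrane protein that inhibits SERCA2 in heart (chr10:53337667-53345987, plus strand). It had 21917 and 19501 reads in frozen and FFPE heart, 26 and 48 in kidney, 17 and 17 in brain and 0 and 4 in liver. In CPM these were 2136 and 1479, 1.52 and 2.18, 0.674 and 0.949, and 0 and 0.276. No organ overlapped its neighbour, although kidney and brain did not differ beyond their spread (1.16 ± 0.65, limma adjusted p = 0.160). Of the 10 genes it had the greatest heart difference in this fit, 11.61 ± 0.53 (limma adjusted p = 1.52e-06). It was called lower in liver by −6.84 ± 0.53, in brain by −3.16 ± 0.53 and in kidney by −1.61 ± 0.53, the last at limma adjusted p = 0.0404 and lost in 7 settings. Those averages of other organs include heart. Compared pairwise, kidney exceeded liver by 3.92 ± 0.65 (limma adjusted p = 0.00145). Gm47644, annotated on the other strand, covers 59.6% of the exon bases of Pln, so without stranded counting the reads of the 2 cannot be told apart.

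Casq2, cardiac calsequestrin (chr3:102086415-102146514, plus strand), had 3991 and 3692 reads in frozen and FFPE heart, 43 and 58 in brain, 6 and 6 in kidney and 1 and 0 in liver. The levels were 389 and 280 CPM, 1.71 and 3.24, 0.351 and 0.272, and 0.0960 and 0. The organs did not overlap, and all 3 steps were called: heart over brain by 7.12 ± 0.66, brain over kidney by 2.83 ± 0.66 and kidney over liver by 2.25 ± 0.66 (limma adjusted p = 4.15e-05, 0.00582 and 0.0242). With log2(CPM + 5) the lower steps were 0.48 and 0.07 and were not called. Brain over kidney was also lost without FFPE brain (1.88). Kidney over liver was lost under quantile normalization (0.73, limma adjusted p = 0.523), without a mean-variance trend (0.0600) and with voom (0.0781). It was lost too without either heart library, either kidney library or FFPE liver. Casq2 was higher in heart by 9.75 ± 0.54 (limma adjusted p = 3.16e-06) and lower in liver by −6.51 ± 0.54 and in kidney by −3.51 ± 0.54. Against the other organs brain was at 0.26 ± 0.54, not called, whereas with log2(CPM + 5) it was called lower (−1.48, limma adjusted p = 8.77e-05).

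Across the 10 genes, 30 pairs of neighbouring organs in the order of level were compared. Of these, 19 were called and 11 were not, and in 10 pairs the libraries overlapped. Neighbours were set by the same values that were compared, so wider gaps between organs were left out. The shares that follow cover every pair of organs, neighbours or not, and are therefore no background for these counts. A share of overlapping pairs over all tested genes is not given here. For all tested genes the 6 pairwise comparisons called 58.0% (brain and heart), 56.6% (brain and kidney), 67.1% (brain and liver), 40.9% (heart and kidney), 53.1% (heart and liver) and 41.2% (kidney and liver).

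Isoform use asks which family member supplies most transcript in an organ. For this, reads were divided by the kilobases of exon in the gene model (GENCODE M21) and expressed as a share of the family. Levels per kilobase let genes be compared within a library, yet they depend on the length used, since the annotated exons of Itpr1 sum to 18319 bases and its longest transcript has 9870.

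Heart used Ryr2 almost to the exclusion of its relatives, with 99.9% of the ryanodine receptor level per kilobase in frozen and 99.4% in FFPE tissue. In reads, Ryr1 and Ryr3 together were 10 of 22272 in frozen heart and 152 of 36734 in FFPE heart. Brain used all 3. In frozen brain Ryr3 had 49.4%, Ryr2 42.0% and Ryr1 8.58% of the level per kilobase, and in FFPE brain Ryr2 had 57.4%, Ryr3 33.2% and Ryr1 9.42%. The lead of Ryr3 in frozen brain was tied to the length used, because Ryr2 had 49.7% and Ryr3 41.9% with the longest transcript, and 51.8% (exact Clopper-Pearson 95% interval 50.6 to 52.9) and 40.2% (39.0 to 41.4) of reads. In FFPE brain Ryr2 had 66.4% of the reads (65.3 to 67.4), so the 2 brain libraries differed by more than counting error. Kidney had 87 family reads in frozen tissue, of which 84 were Ryr2, and 190 in FFPE tissue, of which 153 were. Liver had 2 and 12 family reads, too few to give an isoform share; 0 of 12 for Ryr1 has an exact 95% upper limit of 26.5%.

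IP3 receptor use was more even and differed between organs. Itpr1 supplied 84.1% and 92.3% of the level per kilobase in frozen and FFPE brain, 72.9% and 64.9% in kidney, 54.0% and 54.7% in heart and 48.1% and 48.4% in liver. Itpr2 supplied 12.8% and 4.86%, 23.4% and 31.0%, 33.6% and 33.1%, and 48.4% and 48.5% in the same order. In liver the 2 were thus level per kilobase, while in reads Itpr1 led with 54.1% (exact Clopper-Pearson 95% interval 51.9 to 56.3) and 54.3% (52.6 to 56.0). Itpr3 supplied 12.4% and 12.2% in heart and 2.81% to 4.10% in the other organs. The frozen and FFPE libraries of heart and of liver had nearly the same shares, whereas those of brain and kidney moved in opposite directions, with more Itpr1 in FFPE brain and less in FFPE kidney.

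SERCA use was settled by Atp2a2, which supplied between 94.1% and 99.9% of the level per kilobase in the 8 libraries. Atp2a3 reached 5.24% in frozen and 5.82% in FFPE kidney, 0.965% and 2.91% in brain and at most 0.368% in heart and liver. Atp2a1, the pump of fast skeletal muscle and not one of the 10 genes, was counted in the family and supplied at most 0.471%, in FFPE brain. With shares of reads or the longest transcript, Ryr2, Itpr1 and Atp2a2 each led in 8 of 8 libraries. Per kilobase of all exons they led in 7, 6 and 8. The Ryr2 counts include both liver libraries, whose 2 and 12 family reads are too few to name a leading isoform.

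**Figure D2:**
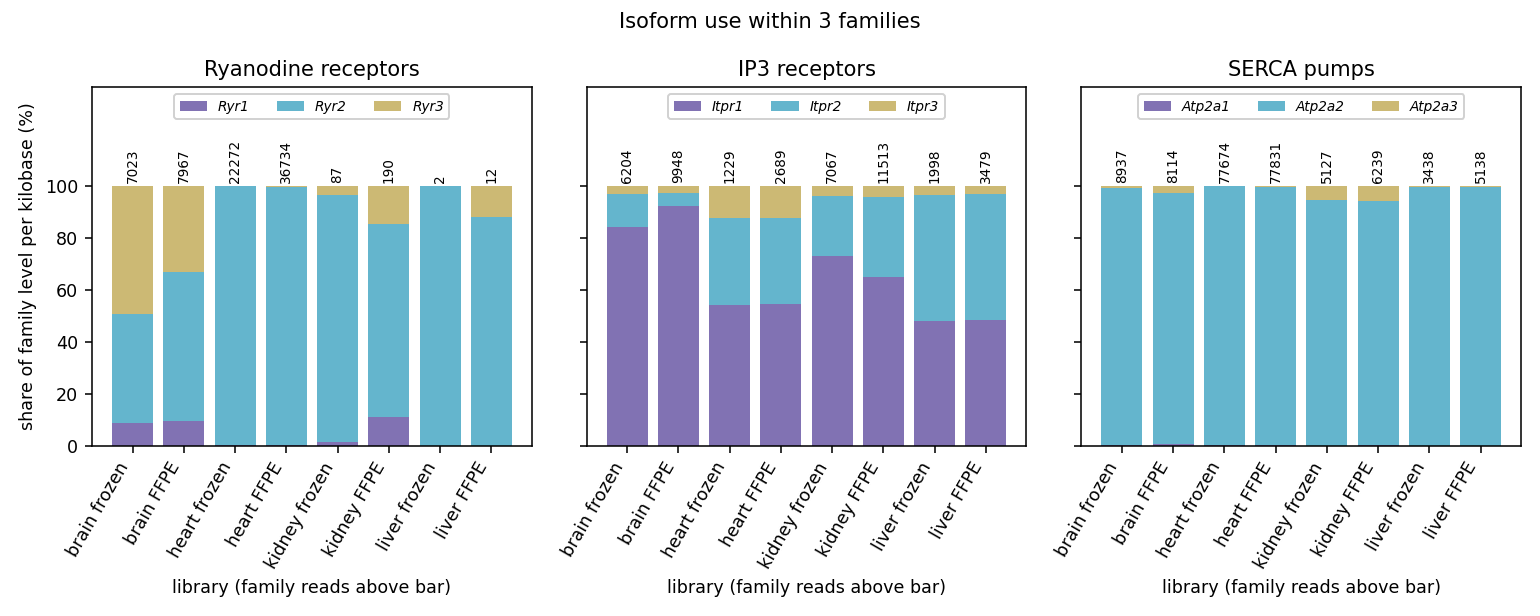
Share of family level per kilobase of exon (y axis, percent) for each member in each of the 8 libraries (x axis), as stacked bars to 100%, with the family's reads printed above each bar. Ryr2 fills the heart bars and brain shows 3 ryanodine receptors. Itpr2 has its largest share in liver, where it is level with Itpr1, and Atp2a2 fills at least 94.1% of every SERCA bar.

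Partner genes were set against each other as the ratio of their levels per kilobase in each library. Pln stood at 0.623 and 0.554 of the Atp2a2 level in frozen and FFPE heart, 0.0117 and 0.0179 in kidney and 0.00423 and 0.00475 in brain. Casq2 stood at 1.89 and 1.06 of the Ryr2 level in heart and 0.124 and 0.115 in brain, on 43 and 58 reads. Ryr2 itself was 0.0606 and 0.0996 of Atp2a2 in heart and 0.0867 and 0.142 in brain, where the levels of both genes were lower. Itpr1 was 2.35 and 2.79 times the Ryr2 level in brain, 0.0537 and 0.0722 times in heart, and 103 and 83.4 times in kidney. These ratios come from 1 library each and carry no test.

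FFPE and frozen tissue were compared with the organ as the block. None of the 10 genes was called (limma, 0 higher and 0 lower), beside 1.2% of all tested genes called higher and 2.18% called lower. At an unadjusted p under 0.05, 6 of the 10 passed. The share of all tested genes at that threshold is not given here, so the count is not read as an excess. With voom on the recovered reads limma called 2, Ryr2 and Itpr1, and the voom counts over all genes are given with the alternatives below. The smallest adjusted p was that of Ryr2 (0.90 ± 0.21, limma adjusted p = 0.0611), followed by Itpr1 (0.65 ± 0.18, 0.0885), Ryr3 (1.86 ± 0.58, 0.116) and Itpr3 (0.61 ± 0.20, 0.136). The remaining values were Ryr1 1.56 ± 0.65, Itpr2 0.39 ± 0.17, Atp2a3 0.72 ± 0.33, Pln 0.79 ± 0.46, Atp2a2 −0.01 ± 0.16 and Casq2 −0.50 ± 0.46. The outcome depended on the scaling: without the authors' factors, 8 of the 10 were called higher, where 23.1% of all tested genes were called higher and the median of all genes moved by 0.47. The median of the 10 genes was 0.68 and that of all genes 0.07.

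Within organs, 1 library stood against 1, so the ratios of FFPE to frozen level carry exact binomial 95% intervals for counting error only and no test. In brain 4 of the 10 genes were more than 2-fold higher in FFPE tissue and 0 lower, beside 8.8% and 5.81% of all tested genes. They were Atp2a3 at 3.87 (2.96 to 5.11), Itpr1 at 2.44 (2.36 to 2.52), Ryr2 at 2.05 (1.96 to 2.14) and Itpr3 at 2.05 (1.57 to 2.68), while Ryr3 stood at 1.01 (0.9503 to 1.07). The same FFPE library held more of the cerebellar markers. All 4 granule cell markers and 6 of 6 Purkinje cell markers were higher there, 4 of the latter by more than 2-fold. The Purkinje markers summed to 194 CPM against 91.6, with Pcp2 at 0 reads in frozen and 98 in FFPE brain. Car8, at 168 and 1510 reads, had the largest rise of the 6, from 6.66 to 84.3 CPM. It also stood at 78.9 CPM in frozen and 95.2 in FFPE liver. Calb1 was nearly level, at 67.9 CPM in frozen and 68.2 in FFPE brain. Of 5 hippocampus and cortex markers 4 were higher in FFPE brain, summing to 163 CPM against 107, with Neurod6 at 10 and 335 reads. None of 5 striatal markers was higher, with sums of 175 and 202 CPM. The part of these differences in the ratios was not tested.

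In heart 2 genes were more than 2-fold higher in FFPE tissue and 0 lower (13.7% and 5.54% of all genes), Ryr3 at 13.4 (6.33 to 34.2) and Ryr1 at 8.04 (2.51 to 41.1), from 7 to 121 and from 3 to 31 reads. Of 9 skeletal muscle fibre markers 8 were higher in FFPE heart, summing to 27.8 CPM against 7.41, with 2 at 0 reads in frozen heart, and of 4 neuron markers 3 were higher, summing to 9.33 against 5.75. Other sets foreign to heart rose too, cerebellar granule cell markers from 0.195 to 2.05 CPM and striatal markers from 5.56 to 15.0. Sums of Purkinje cell markers (29.8 to 22.3) and hepatocyte markers (1.95 to 1.59) fell. Genes with reads numbered 16098 in frozen and 18140 in FFPE heart. The part of these differences in the Ryr1 and Ryr3 ratios was not tested. The abundant heart genes had ratios below 1, with 0.778 (0.770 to 0.786) for Atp2a2, 0.692 (0.679 to 0.706) for Pln and 0.720 (0.688 to 0.753) for Casq2, while Ryr2 was at 1.28. The direction of the first 3 rested on the scaling, as the ratios per total reads were 1.295, 1.15 and 1.20. Ryr2 against Atp2a2 does not depend on scaling, and that ratio was higher in FFPE than in frozen heart, as given above. Of the 7 cardiomyocyte markers only Ttn was higher in FFPE heart. The rest were lower, from Actc1 at 2684 CPM in frozen and 2679 in FFPE tissue to Myl2 at 3607 and 1566. All 4 atrial markers were higher in FFPE heart, among them Nppa with 180 reads in frozen and 7173 in FFPE tissue. The part of cardiomyocyte content and of chamber makeup in these ratios was not tested.

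In kidney 2 genes were more than 2-fold higher and 0 lower (13.3% and 3.89% of all genes), Ryr1 at 13.2 (2.06 to 550) from 1 to 17 reads and Ryr3 at 7.74 (1.88 to 68.3) from 2 to 20. Skeletal muscle fibre markers summed to 3.90 CPM in FFPE and 0.585 in frozen kidney, and neuron markers to 2.95 and 0.527. Cerebellar granule cell markers also rose, with 0.544 and 0.234 CPM, while hepatocyte markers fell, with 2.13 and 3.98. Genes with reads numbered 20349 in FFPE and 17129 in frozen kidney. The part of these differences in the ratios was not tested. In liver 3 genes were more than 2-fold higher and 1 lower on the log2 scale (10.1% and 4.82% of all genes), namely Ryr2, Ryr3, Pln and, as the lower one, Casq2. These rested on 0 to 11 reads, and each lay within counting error. Among 407 genes with at least 15 kb of exon, as Ryr1, Ryr2, Ryr3 and Itpr1 have, the median log2 difference was 0.25 in brain, 0.40 in heart, 0.48 in kidney and 0.28 in liver, beside −0.01, 0.07, 0.06 and −0.04 for all tested genes. The medians of the 10 genes were 0.82, 0.74, 0.49 and 0.25. With length and GC trends removed, 0 of the 10 were called, as in the main fit. With 0 calls in both fits, this count cannot show the part of exon length, which was not tested.

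**Figure D3:**
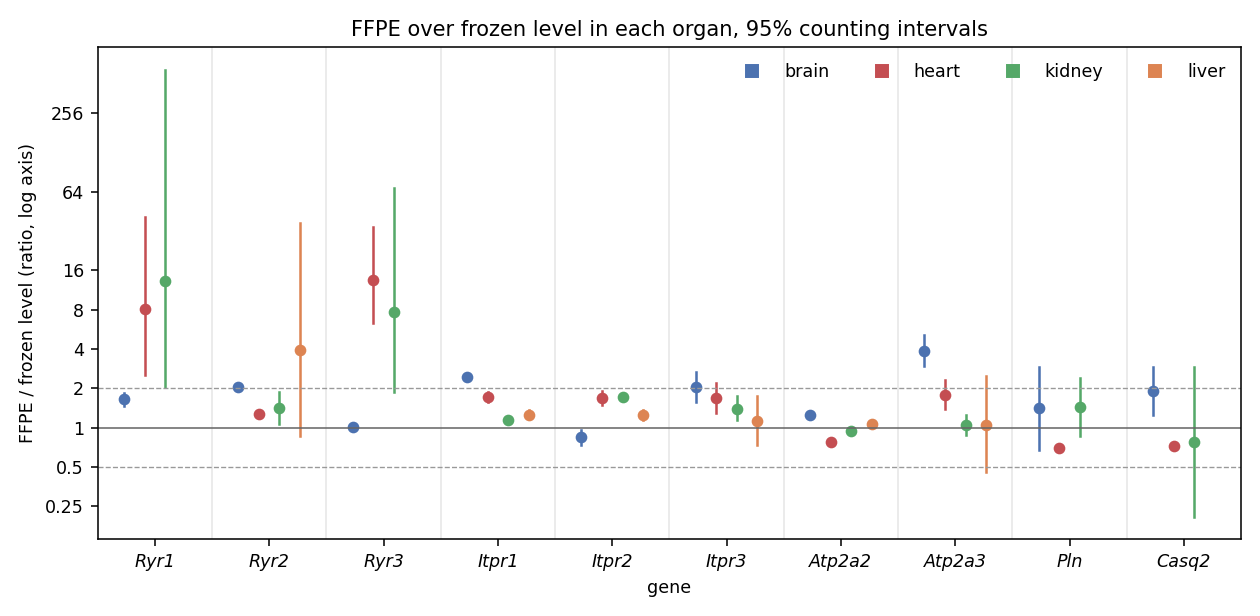
Ratio of FFPE to frozen level (y axis, log scale) for each gene (x axis) and organ (colour), with exact 95% counting intervals; solid and dashed lines mark a ratio of 1 and 2-fold limits, and pairs with 0 reads in a library are not drawn. Ryr1 and Ryr3 in heart and kidney stand highest with wide intervals, and Atp2a2, Pln and Casq2 lie below 1 in heart.

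The other genes of calcium handling, a list of 88 of which 84 were in the table and 80 were tested, showed where the 10 genes sit in their pathway. In heart 35 were called higher and 21 lower, in brain 40 and 23, in kidney 12 and 36 and in liver 17 and 45, against the shares of all genes given above. The medians were 0.38, 0.70, −0.58 and −1.08. The list was written with earlier results of these libraries known, so its counts are a description.

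Of 22 tested genes of the release complex and its luminal partners, 12 were higher in heart, led by the junctional proteins that anchor ryanodine receptor and calsequestrin. Hrc, a histidine-rich calcium-binding protein of the sarcoplasmic reticulum, was higher by 10.74 ± 0.49, with 5097 and 4567 reads in heart and at most 11 in any other library. Trdn (triadin), which links calsequestrin to the receptor, was higher by 9.40 ± 0.44, and Jph2, the junctophilin of the cardiac dyad, by 7.84 ± 0.37. Brain had 13 higher genes of this group and another set of leaders, the neuronal junctophilins Jph4 (9.79 ± 0.78) and Jph3 (8.89 ± 0.85) and the kinase Camk2a (8.83 ± 0.41). Kidney and liver each had 1 higher and 17 lower. Among 4 tested SERCA regulators and relatives, Ppp1r3a, a phosphatase-targeting protein of striated muscle, was higher in heart by 10.38 ± 0.56. Sln, the SERCA inhibitor of the atrium, did not pass the filter on low values, having 0 reads in frozen and 536 in FFPE heart and at most 2 elsewhere.

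The luminal chaperones and calcium buffers of the endoplasmic reticulum had a different distribution, with 7 of 10 higher in liver and 7 of 10 lower in brain. Hspa5 (BiP) was higher in liver by 2.18 ± 0.20 and Hsp90b1 by 1.93 ± 0.18. Of 19 genes for IP3 production and IP3 receptor regulation, 9 were higher and 4 lower in heart (21.5% and 28.7% of all genes). Brain had 6 and 4 (34.7% and 31.6%), kidney 6 and 5 (20.3% and 19.9%) and liver 2 and 9 (27.3% and 35.2%). Inpp5a, which dephosphorylates IP3, was higher in heart by 2.70 ± 0.17, and Itpka, the IP3 kinase of neurons, was higher in brain by 6.36 ± 0.91. Itprip, which binds IP3 receptors, was higher in kidney by 2.51 ± 0.40. All 8 tested pumps and exchangers of the plasma membrane and Golgi were higher in brain, with Atp2b3 at 9.47 ± 0.88, Slc8a3 at 8.10 ± 1.01 and Slc8a2 at 7.60 ± 0.52. Slc8a1, the cardiac sodium-calcium exchanger, was the 1 of these called higher in heart (2.15 ± 0.15).

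All 4 voltage-gated channel genes of excitation-contraction coupling were higher in heart, including Cacna1c, the pore of the cardiac L-type channel, by 4.82 ± 0.22, and Cacna1s, known from skeletal muscle, by 4.95 ± 0.66 on 64 and 66 heart reads. In store-operated entry Orai2, a pore subunit of the plasma membrane calcium channel, was higher in brain by 4.22 ± 0.65 and lower in liver by −2.45 ± 0.65. Stim1, the calcium sensor of the store, was higher in brain by 1.00 ± 0.16 and in liver by 0.48 ± 0.16. Mitochondrial uptake had Micu3 higher in brain by 3.39 ± 0.28 and the exchanger Slc8b1 higher in liver by 2.73 ± 0.31. Between FFPE and frozen tissue 4 of the 80 genes were called, Atp2b2 (1.11 ± 0.22) and Cacna1c (0.86 ± 0.19) as higher and Saraf (−0.78 ± 0.16) and Smdt1 (−0.54 ± 0.12) as lower, at limma adjusted p = 0.0394, 0.0499, 0.0437 and 0.0469. Without any 1 of the 4 kidney and liver libraries, limma called 0 of all tested genes in this comparison, so these 4 calls were lost too.

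**Figure D4:**
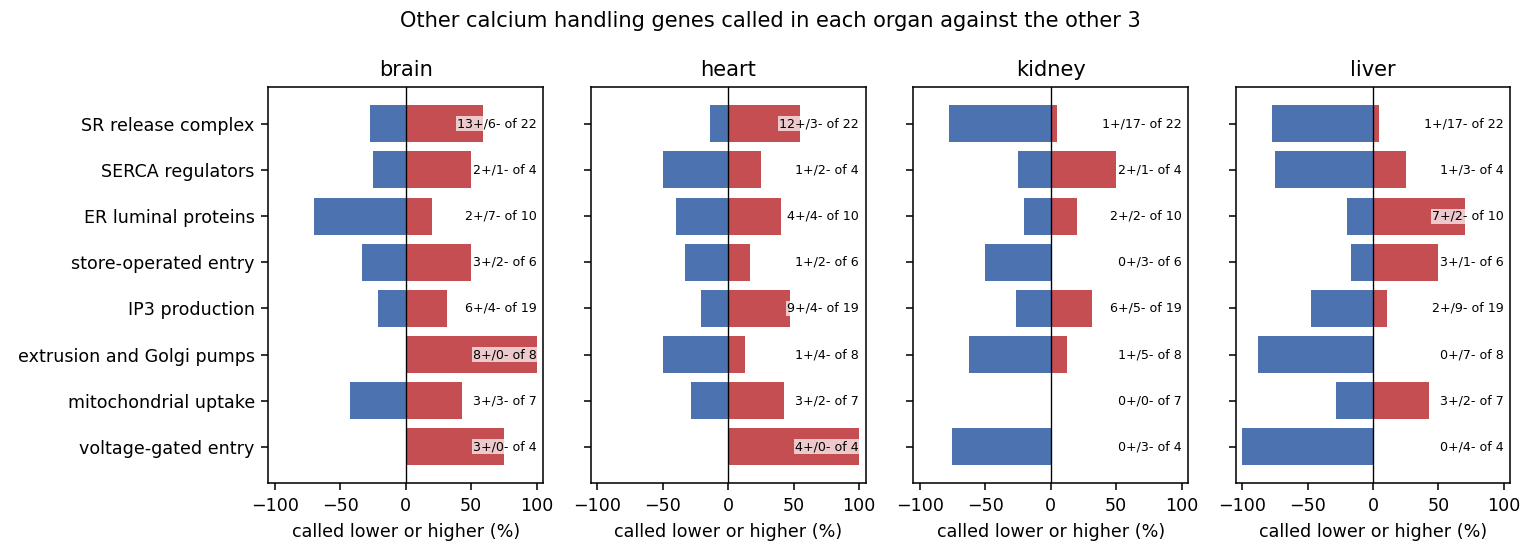
Share of tested genes called lower (blue, left) or higher (red, right) in each organ against the other 3 (x axis, percent), for the 8 roles of the calcium handling list (y axis), with counts beside the bars. All 8 extrusion and Golgi pumps are higher in brain, all 4 voltage-gated entry genes are higher in heart, and 17 of 22 release complex genes are lower in kidney and in liver.

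The genes most like each of the 10 were found by the root mean square (RMS) difference of log2 profiles over the 8 libraries, each centred on its own mean, among all tested genes. The libraries of an organ share their source, so this is a description of 8 points. Ttn (0.63 log2 units) and Hrc (0.82) were closest to Pln, Lrrc2 (0.48) and Ppp1r3a (0.83) to Casq2, and Itga7 (0.41) and Pde4dip (0.53) to Atp2a2. Ryr2 had no near match, with Usp13 at 0.88 and Ppp1r14c at 0.98, and its closest relative among the 10 was Casq2 at 1.80. Ryr1 and Ryr3 were the 1 pair of the 10 in which a member was among the 3 nearest genes of another, Ryr1 having rank 3 for Ryr3 at 0.77, and Cracd was nearest to both (0.62 and 0.64). The IP3 receptors had close matches that were all outside the group, Sipa1l3 for Itpr1 (0.23), Fignl2 for Itpr2 (0.24) and Gm15708 for Itpr3 (0.22). Atp2a3 was nearest to Car13 (0.44).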

How the data were processed

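Total RNA-seq of 8 libraries was analysed from 1 table. Per the submitters' processing notes, HISAT2, featureCounts and limma were used with the mm10 build; their versions, the annotation, the strand setting and the scaling method are not stated there. The deposited values are log2 CPM with 0.5 added to each count, on library sizes multiplied by the authors' scaling factor, as the values themselves show: whole reads were recovered for 100% of them within 1e-06. No column belonged to an unmapped sample.

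Genes above 1 CPM in at least 2 libraries (15819) entered a limma model (version 3.58.1, R 4.3.3) holding organ and preparation terms, a mean-variance trend and 3 residual degrees of freedom. The organ term is the block that pairs the frozen and FFPE library of an organ, a pairing that comes from the organ and not from a stated animal. Intervals are exact binomial at 95%, cover counting error only and were computed with SciPy 1.17.1 under Python 3.11.15. Depth ran from 10180972 to 20526813 reads, where 3 reads are 0.119 to 0.292 CPM. Gene models came from GENCODE M21 and promoters from RefSeq GRCm38.p6, which held 7 of the 10 genes. Protein sequences were not used here.

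In data simulated from these libraries with 15819 genes, 100 changed by each size, limma called 25% of changes of 1 log2 unit and 58% of changes of 2 units between FFPE and frozen tissue, with 2 false calls, and 13% and 56% in heart with 1 false call. All other genes were simulated without a difference in the comparison. In the real heart comparison 21.5% of genes were called higher and 28.7% lower. The simulated heart shares are therefore not the detection rates of the organ tests reported here. Alternatives covered filters, scaling, pseudocount, variance model, voom, exon length and GC content, and leaving out each library. The isoform shares were also computed from reads, from the longest transcript and from summed preparations. The genes, the calcium handling list and the markers were chosen with earlier results of these data known. Named genes are the 10, up to 3 called genes with the greatest differences per role and organ, the 3 nearest profiles, and markers that move with a result.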

Additional observations from a re-analysis of the deposited data

Results flagged for a closer look

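Itpr2 had a higher level in FFPE than in frozen tissue in 3 organs and a lower one in brain. The ratio of FFPE to frozen level was 1.67 in heart, 1.7 in kidney and 1.25 in liver, and 0.841 in brain, each on 1 library against 1, and the difference between organs was not tested. With the authors' scaling every interval for counting error left out a ratio of 1. Per total reads the brain ratio was 0.986, for which no interval was computed, so its distance from 1 depended on the scaling. Itpr1 in the same brain libraries stood at 2.44.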

How the results depend on the processing

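The alternatives followed 69 comparisons of the 10 genes, of which 51 were called. These took in the 19 called pairs of neighbouring organs but not the 11 pairs that were not called. The 51 are therefore not a share of all comparisons tested. Of the 51, 30 kept their call in every alternative run and 21 lost it in at least 1. Scaling mattered most for the levels of all genes: without the authors' factors, an alternative added after seeing the data, the median of all genes shifted by 0.93 in brain, −0.84 in heart, 0.25 in kidney, −0.34 in liver and 0.47 between FFPE and frozen tissue. The higher and lower calls over all genes were then 9043 and 2457 in brain, 1649 and 9317 in heart, 3713 and 2093 in kidney, 2797 and 6501 in liver and 3652 and 73 for FFPE, instead of 5495 and 5003, 3402 and 4542, 3216 and 3153, 4321 and 5567, and 190 and 345. Quantile normalization shifted the medians by −0.29 in brain and 0.21 in heart, and median centring by −0.24 and 0.18.

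Among the 10 genes, the count lower in heart was 1 and became 3 with log2(CPM + 5), 2 with length and GC trends removed and 2 without scaling factors. The count higher in liver was 0 under quantile normalization and 0 without scaling factors. The count higher in FFPE tissue was 1 under quantile normalization, 2 with voom and 8 without scaling factors. Of 30 neighbouring organs 12 were called without a mean-variance trend. Leaving out 1 library gave 4 to 6 genes higher and 1 to 2 lower in heart, 1 to 4 higher and 3 to 6 lower in kidney, 7 to 9 lower in liver and 14 to 18 called neighbouring organs instead of 19. The lowest counts came without either heart library for genes higher in heart, without frozen kidney for both kidney counts, without FFPE liver for liver and without FFPE kidney for neighbours. The fit with no replicate block, that is without the organ term, called 0 of the 10 and 0 of all genes between FFPE and frozen tissue; over all genes the same comparison gave 461 and 703 with voom, 128 and 213 after quantile normalization, 114 and 211 at log2(CPM + 5), 86 and 297 with length and GC trends removed and 0 without a mean-variance trend, and with 1 library left out as few as 0.

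Directions reversed as follows. With length and GC trends removed, which for the organ comparisons was also added after seeing the data, the values were −0.0598 for Itpr1 in brain, 0.14 for Itpr1 in liver, 0.0407 for Itpr3 in liver, −0.15 for Itpr1 in brain over liver, −0.62 for Atp2a3 in brain and −0.21 for Ryr1 in heart. Without scaling factors they were 0.50 for Itpr3 in brain, −0.43 for Ryr1 in heart, −0.35 for Itpr2 in heart over brain and 0.47 for Atp2a2 in FFPE. Quantile normalization gave −0.53 for Atp2a3 and −0.49 for Casq2 in brain and 0.22 for Atp2a2 in FFPE, and median centring −0.20 for Atp2a3 in brain and 0.00593 for Atp2a2 in FFPE. With log2(CPM + 5) the values were −0.12 for Atp2a3 and −1.48 for Casq2 in brain, −0.64 for Ryr1 and −0.72 for Ryr3 in heart and −0.0614 for Pln in FFPE, which was −0.44 with voom. Leaving out 1 library gave −0.77 to 0.86 for Atp2a3 and −0.68 to 1.21 for Casq2 in brain, −0.42 to 1.25 for Ryr1 and −0.34 to 2.06 for Ryr3 in heart, and −0.12 to 0.11 for Atp2a2 and −0.97 to 0.0259 for Casq2 in FFPE. The cause of these reversals was not tested. Depth limits Ryr1, Ryr3, Pln and Casq2 in liver, with 0 to 4 reads per library.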
